A study of Mus musculus with 227 samples.

Results

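Tricyclic antidepressants make up 5 of the 218 drug libraries in this screen, which also holds 9 vehicle libraries: Imipramine, Doxepin, Trimipramine, Nortriptyline and Protriptyline, with 1 library each. They were found by drug name alone, from the agent label of each sample. No measured value entered that rule, although earlier results of these data were known. The screen measured messenger RNA in primary mouse cerebrocortical cultures after exposure to 1 of 218 drugs or to vehicle. The embryos were the first-generation offspring of FVBN females and C3B6F1 males, dissociated at embryonic day 16.5, and the cultures were at 21 days in vitro when treated for 8 h. The 9 vehicle libraries received 0.2% DMSO. No drug concentration is given in the sources used here, so equal doses of the 5 compounds cannot be assumed. The labels do not say whether the vehicle libraries came from separate cultures, and p-values therefore measure only the spread between libraries. The cultures hold neurons and glia together and carry no disease allele or transgene in the labels.

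Tricyclics share a core of 3 fused rings with a short side chain that ends in an amine. They are known for blocking the reuptake of noradrenaline and serotonin by the transporters encoded by Slc6a2 and Slc6a4, and for antagonism at histamine, muscarinic, adrenergic and serotonin receptors and at voltage-gated sodium channels. As cationic amphiphilic drugs they also collect in lysosomes. Imipramine, Doxepin and Trimipramine are tertiary amines. Nortriptyline and Protriptyline are secondary amines, which carry a methyl group less on the nitrogen, and differ from each other in where a double bond lies. Trimipramine is Imipramine with a methyl branch on the side chain, and Doxepin has an oxygen in its central ring.

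The 5 libraries held 26.46 to 41.51 M counts and the vehicles 31.4 to 43.77 M. Each tricyclic was also compared with the other drugs that carry the same run code in the column names. Nortriptyline and Protriptyline share a run, the other three lie in a run each, and the 4 runs hold 118 other drugs. Within a run, libraries carry a further code, shared by 4 libraries each, whose meaning the sources used here do not give. For every list except mural cell markers, scores of drugs with the same code varied less than those of a run. The SD of the neuron marker score was 0.159 within runs and 0.117 within codes, on the log2 scale. Results below are therefore given against the run and, beside it, against the 3 other drugs of the same code. The vehicles themselves differed from the other drugs of these 4 runs at 4155 of 15429 genes at an unadjusted p under 0.05, although no gene passed an adjusted p of 0.05 in edgeR.

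No gene passed the adjusted threshold of 0.05 in edgeR's quasi-likelihood test for the class or for any of its members. For the 5 tricyclics against the 9 vehicles the lowest adjusted p was 0.150 over 14636 genes (0% called). At an unadjusted p under 0.05, 1845 genes (12.6%) were higher and 1971 (13.5%) lower, and DESeq2 called 443 genes at an adjusted p under 0.05. Against the other drugs of the runs the lowest adjusted p was 0.252 over 15429 genes. There, 936 genes (6.07%) were higher and 1298 (8.41%) lower at an unadjusted p under 0.05, and DESeq2 and limma called 0. The counts below for groups of genes use this unadjusted level and are descriptions to be read against those percentages. The gene lists were set with earlier results of these data known.

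Neuron markers stood lower in the class, most of all with Nortriptyline and Doxepin. The same 2 libraries had the largest share of mitochondrial counts, 4.236% and 4.143%, above every vehicle (3.099% to 3.906%), while the other 3 had 3.238% to 3.873%, and Doxepin had the lowest depth of the 5. The part of either in the results was not tested. Markers of neurons, astrocytes and both oligodendrocyte stages were present in all 5 libraries, while summed microglial markers reached 7.88 CPM (CPM, counts-per-million of the library) at most and endothelial markers 4.27 CPM, with 1 endothelial marker at 0. Summed markers of oligodendrocyte precursors, 375.5 to 449.9 CPM, lay below every vehicle (451.9 to 519.1 CPM). Against their runs the 5 scores of that list were -0.16 to 0.02 and those of the vehicles 0.03 to 0.42, so the other drugs lay below the vehicles too. Summed neuron markers spanned 3984 to 5282 CPM under the tricyclics and 4711 to 6551 CPM in the vehicles. All 8 neuron markers were lower than in vehicle at an unadjusted p under 0.05, and 4 of 8 were lower than in the other drugs. Without Doxepin or without Nortriptyline 2 of 8 were lower than in vehicle, and without Doxepin, Trimipramine or Nortriptyline 0 of 8 were lower than in the other drugs. Without Imipramine 8 of 8 were lower than in the other drugs. Against the 5 vehicles of the same runs, with run as a term, 2 of 8 were lower. The count over all genes, in either direction, moved in the same fits: against the other drugs it was 2234 with all 5 drugs, 915 without Nortriptyline, 1080 without Trimipramine, 1152 without Doxepin, 3157 without Protriptyline and 3735 without Imipramine. Against vehicle it was 3816 with all libraries, 1725 without Nortriptyline, 1840 without Doxepin, 2898 without Vehicle 8, 3034 without Vehicle 9 and 2771 with the 5 vehicles of the same runs. Counts given below without a library are to be read against these totals. Map2, which encodes a dendritic microtubule protein, read 1464 CPM with Imipramine, 1326 with Doxepin, 1486 with Trimipramine, 1320 with Nortriptyline and 1650 with Protriptyline, against 1426 to 1940 CPM in the vehicles. Doxepin and Nortriptyline lay below every vehicle, and the other three within their range. Of the 6 excitatory neuron markers 5 were lower than in vehicle at the unadjusted level. Camk2a, a kinase subunit of excitatory synapses, averaged 615.3 ± 173.5 CPM (SD, n = 5) against 964.5 ± 203.3 (SD, n = 9). Of the 7 inhibitory neuron markers 1 was higher and 1 lower than in vehicle, and their summed level spanned 1368 to 1815 CPM (median 1764) against 1427 to 2113 CPM (median 1552). Fibroblast markers stood above the vehicle mean in all 5 libraries, by 0.33 to 0.97 in log2 score, and 3 of 5 were higher than in vehicle at the unadjusted level. Their summed level was 48.91 to 82.96 CPM against 24.08 to 72.59 CPM, and its part in the results was not tested. Against the runs the fibroblast scores were 0.00 (Protriptyline) to 0.51 (Doxepin), and those of the vehicles -0.52 to 0.78. Against the mean of the same code the differences were -0.06 to 0.39. In bulk RNA, fewer cells of a type and less RNA per cell cannot be told apart. Genes of receptors, stress and sterol pathways named here beyond the naming rule were chosen after their values were seen.

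This shift was not shared evenly by the compounds or by the libraries next to them. The neuron marker score (mean log2 CPM of the markers minus the mean of the other drugs of the run) was -0.41 for Nortriptyline, rank 30 of 31 in its run from the highest, -0.27 for Doxepin, also rank 30 of 31, and -0.23 for Trimipramine, rank 27 of 30. Imipramine stood at 0.08 and Protriptyline at 0.05. Against the 3 drugs of the same code the differences were -0.30 for Doxepin, -0.08 for Nortriptyline, -0.08 for Trimipramine, -0.10 for Protriptyline and 0.04 for Imipramine. The 3 drugs sharing Nortriptyline's code (Nilotinib, Nitrofurantoin and Orlistat) were low as well, between -0.37 and -0.27. For astrocyte markers the run-centred score was 0.37 for Nortriptyline, 0.23 for Trimipramine, 0.19 for Doxepin, -0.05 for Protriptyline and -0.09 for Imipramine. Against the mean of the same code it was higher for 5 of 5, by 0.06 to 0.21. Gfap, an intermediate filament of astrocytes, measured 688.2 CPM with Imipramine, 1243 with Doxepin, 900.6 with Trimipramine, 1292 with Nortriptyline and 800.6 with Protriptyline, and 322.9 to 982.4 CPM in the vehicles.

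The direct targets of these drugs are the reuptake transporters and the amine receptors. Transcripts of the reuptake transporters, which are made mainly by monoamine neurons whose cell bodies lie outside the cortex, were close to the floor of the assay. Slc6a2, the noradrenaline transporter, was at 0 CPM with Imipramine, Doxepin and Protriptyline, at 0.035 with Trimipramine and 0.065 with Nortriptyline, and at most 0.113 in the vehicles. Slc6a4, the serotonin transporter, lay at 0.105 to 0.401 CPM under the tricyclics and 0.101 to 0.554 CPM in the vehicles. Both ranges overlapped, and no difference was detectable at this depth.

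Among the receptors and transporters for amines, more genes were lower than higher. Against vehicle 14 of 25 tested members were lower and 1 was higher at the unadjusted level, with a median log2 difference of -0.34 (0.00 over all genes). Against the other drugs 6 of 26 were lower and 1 higher, with a median of -0.20. Leaving out Doxepin or Nortriptyline brought the count against vehicle to 8 of 26, and leaving out Vehicle 8 or Vehicle 9 brought it to 9 (of 25 and 26). Against the other drugs the count was 3 of 27 without Nortriptyline and 12 of 27 without Imipramine. Chrm3, the muscarinic M3 receptor, was at 15.05 CPM with Imipramine, 13.51 with Doxepin, 16.26 with Trimipramine, 12.46 with Nortriptyline and 18.21 with Protriptyline, against a vehicle range of 15.98 to 24.27 and a median of 21.68. Imipramine, Doxepin and Nortriptyline lay below every vehicle. The log2 difference was -0.46 ± 0.11 (SE) from vehicle and -0.34 ± 0.10 from the other drugs, with adjusted p = 0.150 and 0.252.

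Serotonin and dopamine receptors were lowest with Nortriptyline and Doxepin. Htr1a, the serotonin 1A receptor, was at 8.45 CPM with Imipramine, 4.92 with Doxepin, 7.32 with Trimipramine, 3.46 with Nortriptyline and 6.04 with Protriptyline, and at 7.15 to 13.13 CPM in the vehicles. Only Imipramine and Trimipramine reached into the vehicle range, and the log2 difference from vehicle was -0.81 ± 0.21 (SE). Drd2, the dopamine D2 receptor, was lowest with Nortriptyline (2.68 CPM) and Doxepin (2.744 CPM), against 5.302 to 12.09 CPM in the vehicles. Imipramine (6.106), Trimipramine (5.57) and Protriptyline (6.30 CPM) lay inside that range. Htr2c and Chrm1, the most abundant receptor transcripts of the list, averaged 41.3 ± 8.13 and 82.1 ± 24.9 CPM (SD, n = 5), against 57.3 ± 9.59 and 123.7 ± 27.0 in the vehicles (SD, n = 9). Adra1a, the alpha-1A adrenergic receptor and a known tricyclic target, was the member that stood higher: 24.27, 32.14, 25.54, 34.33 and 21.96 CPM in the order above, against 16.74 to 27.02 CPM in the vehicles, so that Doxepin and Nortriptyline lay above every vehicle.

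**Figure D1:**
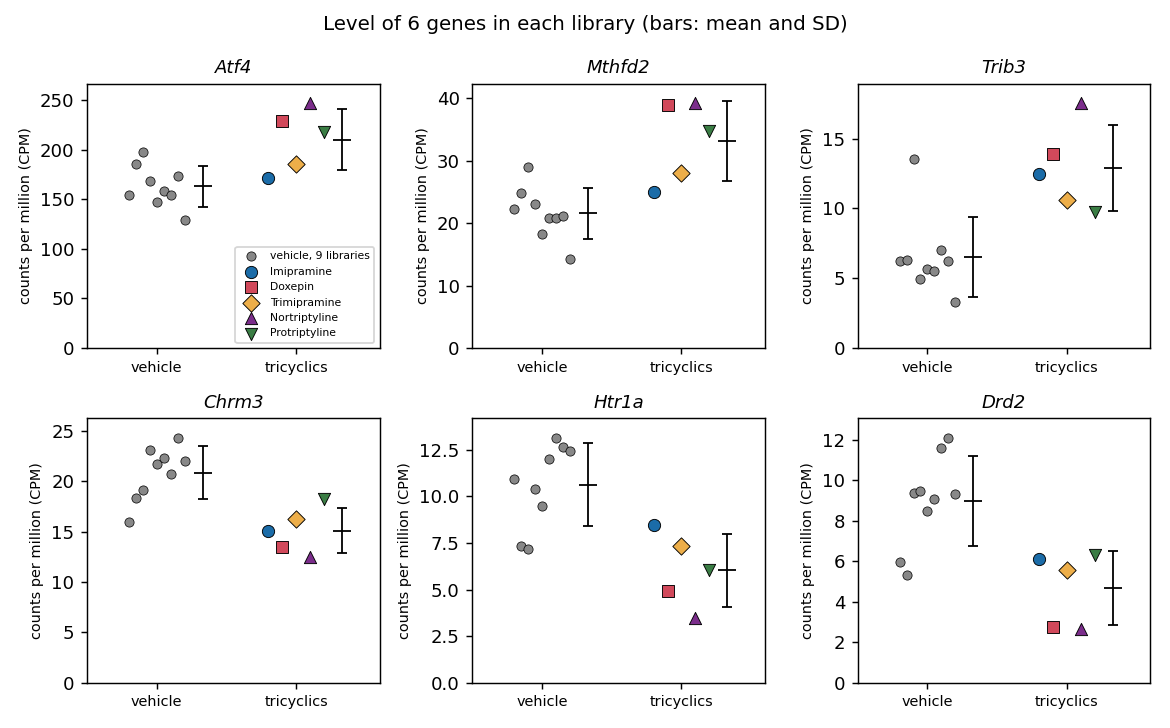
CPM of 6 genes in each library, with the 9 vehicles as grey points, the 5 tricyclics as coloured symbols, the mean and SD of each group as black bars, and every axis starting at 0. Nortriptyline and Doxepin are the highest of the 5 for Atf4 and Mthfd2 and the lowest of the 5 for Chrm3, Htr1a and Drd2.

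These receptor values moved with the neuron markers. The run-centred score of the receptor list was -0.41 for Nortriptyline, -0.25 for Doxepin, -0.17 for Trimipramine, -0.02 for Protriptyline and 0.06 for Imipramine. Against the same code the differences were -0.10, -0.28, 0.00, -0.13 and -0.06. With the neuron marker score as a further term, chosen after the data were seen, the list's median difference from the other drugs was -0.01. In that fit 3 of 26 members were lower, while 1421 genes of the whole table passed the unadjusted level in either direction, against 2234 without the term. Counts given below with this term are to be read against that total. With the code as the block the list's median difference was -0.13 and 7 of 26 were lower.

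Voltage-gated sodium channels, a site of tricyclic block, followed the receptors. Against vehicle 7 of 9 subunit genes were lower at the unadjusted level (median log2 difference -0.32), and against the other drugs 5 of 9 (median -0.20), or 2 of 9 without Doxepin or without Nortriptyline and 3 of 9 without Trimipramine. Scn8a, a pore-forming subunit of the axon initial segment, was at 216.8 CPM with Imipramine, 161.6 with Doxepin, 204.8 with Trimipramine, 148.3 with Nortriptyline and 210.5 with Protriptyline, against 201.8 to 287.5 CPM in the vehicles. Doxepin and Nortriptyline were below every vehicle and each was the lowest of the 31 drugs of its run. Scn2a1 averaged 301.9 ± 62.6 CPM (SD, n = 5) against 392.4 ± 60.4 (SD, n = 9). The score relative to the same code was -0.28 for Doxepin, -0.17 for Trimipramine, -0.07 for Nortriptyline, -0.03 for Protriptyline and 0.04 for Imipramine. With the neuron marker score as a term the median was -0.02, with 2 of 9 lower and 1 higher.

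Genes of the ATF4 stress response stood higher in the class. ATF4 is the transcription factor translated when the initiation factor eIF2 is phosphorylated, and its targets import and make amino acids. All 20 genes of the list stood above the other drugs of the runs, 12 of them at an unadjusted p under 0.05 (6.07% of all genes), with a median log2 difference of 0.31. Against vehicle 19 of 20 stood above and 11 passed that level (12.6% of all genes), with a median of 0.37. None was lower at that level in either comparison. Leaving out Nortriptyline brought the count against the other drugs to 6 of 20 and the median to 0.25, and leaving out Nortriptyline brought the count against vehicle to 7 of 20. Against the 5 vehicles of the same runs, with run as a term, 15 of 20 were higher, in a fit with 2771 genes past the unadjusted level in either direction.

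Atf4 itself (mm10 15:80255184-80257541, plus strand) was at 171.8 CPM with Imipramine, 228.8 with Doxepin, 185.5 with Trimipramine, 246.7 with Nortriptyline and 217.9 with Protriptyline, against a vehicle range of 129.1 to 197.6 and a median of 157.8. Doxepin, Nortriptyline and Protriptyline lay above every vehicle. The log2 difference was 0.37 ± 0.10 (SE) from vehicle and 0.28 ± 0.10 from the other drugs, with adjusted p = 0.150 and 0.257 in edgeR.

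Genes of amino acid and folate metabolism on the list varied in how far they left the vehicle range. Mthfd2, a mitochondrial folate enzyme, was at 24.98, 38.88, 27.99, 39.2 and 34.68 CPM in the order Imipramine, Doxepin, Trimipramine, Nortriptyline, Protriptyline, against 14.34 to 28.99 CPM in the vehicles. The same 3 drugs that topped the vehicles for Atf4 did so here, and the log2 difference from vehicle was 0.62 ± 0.14 (SE). Slc3a2, the heavy chain of amino acid exchangers, measured 310.1 CPM with Imipramine, 395.1 with Doxepin, 352 with Trimipramine, 410.7 with Nortriptyline and 311.7 with Protriptyline, and only Doxepin and Nortriptyline exceeded the highest vehicle (374.9). Its partner Slc7a5 averaged 372 ± 30.6 CPM (SD, n = 5) against 307.8 ± 54.3 (SD, n = 9) and overlapped with the vehicles in all 5. Psat1, of serine synthesis, averaged 278.3 ± 43.2 CPM against 208.2 ± 52.6, with Doxepin and Nortriptyline above every vehicle. Asns, the asparagine synthetase, had nearly the same mean in both groups: 113.8 ± 8.35 against 113.9 ± 16.3 CPM.

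Among the regulators, Trib3, a pseudokinase that ATF4 induces, was at 12.46 CPM with Imipramine, 13.93 with Doxepin, 10.62 with Trimipramine, 17.53 with Nortriptyline and 9.74 with Protriptyline. The vehicles held 3.27 to 13.55 CPM with a median of 6.206, so all 5 drugs stood above that median while only Doxepin and Nortriptyline left the range. The log2 difference was 0.98 ± 0.25 (SE) from vehicle and 0.75 ± 0.29 from the other drugs. Atf5, a related transcription factor, varied from 426.2 to 826 CPM under the tricyclics and from 116.1 to 628.1 CPM in the vehicles. Folding enzymes of the endoplasmic reticulum did not follow: of 16 chaperone genes 0 were higher or lower than in the other drugs at the unadjusted level, with a median of 0.01.

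**Figure D2:**
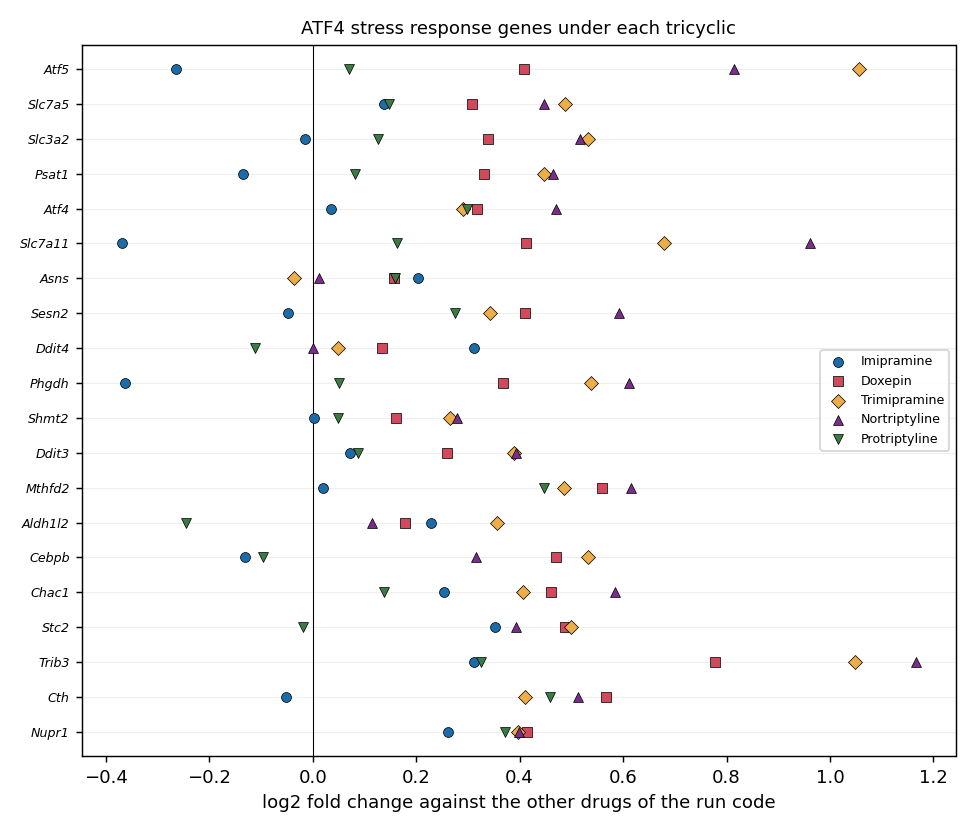
Log2 fold change of each of 20 ATF4 stress genes against the other drugs of the run (horizontal axis), with 1 symbol per tricyclic and 1 library behind each symbol. The values of Nortriptyline, Doxepin and Trimipramine lie mostly to the right of those of Imipramine and Protriptyline.

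The run-centred ATF4 score was 0.51 for Trimipramine, rank 1 of 30, 0.55 for Nortriptyline, rank 2 of 31 behind Nilotinib (0.96), 0.38 for Doxepin, rank 2 of 31, 0.20 for Protriptyline, rank 8 of 31, and 0.07 for Imipramine, rank 9 of 31. In single-drug fits 6 of 20 genes were higher with Nortriptyline (6.82% of all genes), 5 with Trimipramine (4.98%), 1 with Doxepin (1.84%), and 0 with Imipramine (1.74%) or Protriptyline (0.593%). Against the 3 drugs of the same code the score was higher by 0.37 for Trimipramine, 0.36 for Doxepin, 0.33 for Protriptyline and 0.12 for Nortriptyline, and the difference was -0.29 for Imipramine. Imipramine's code holds Aminophylline (0.89) and Nortriptyline's holds Nilotinib, each the highest score of its run. With the code as the block 1 of 20 genes was higher and the median was 0.15, while 1248 genes of the whole table passed the unadjusted level in either direction. With the neuron marker score as a term 4 of 20 were higher and the median was 0.16, in a fit with 1421 such genes.

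**Figure D3:**
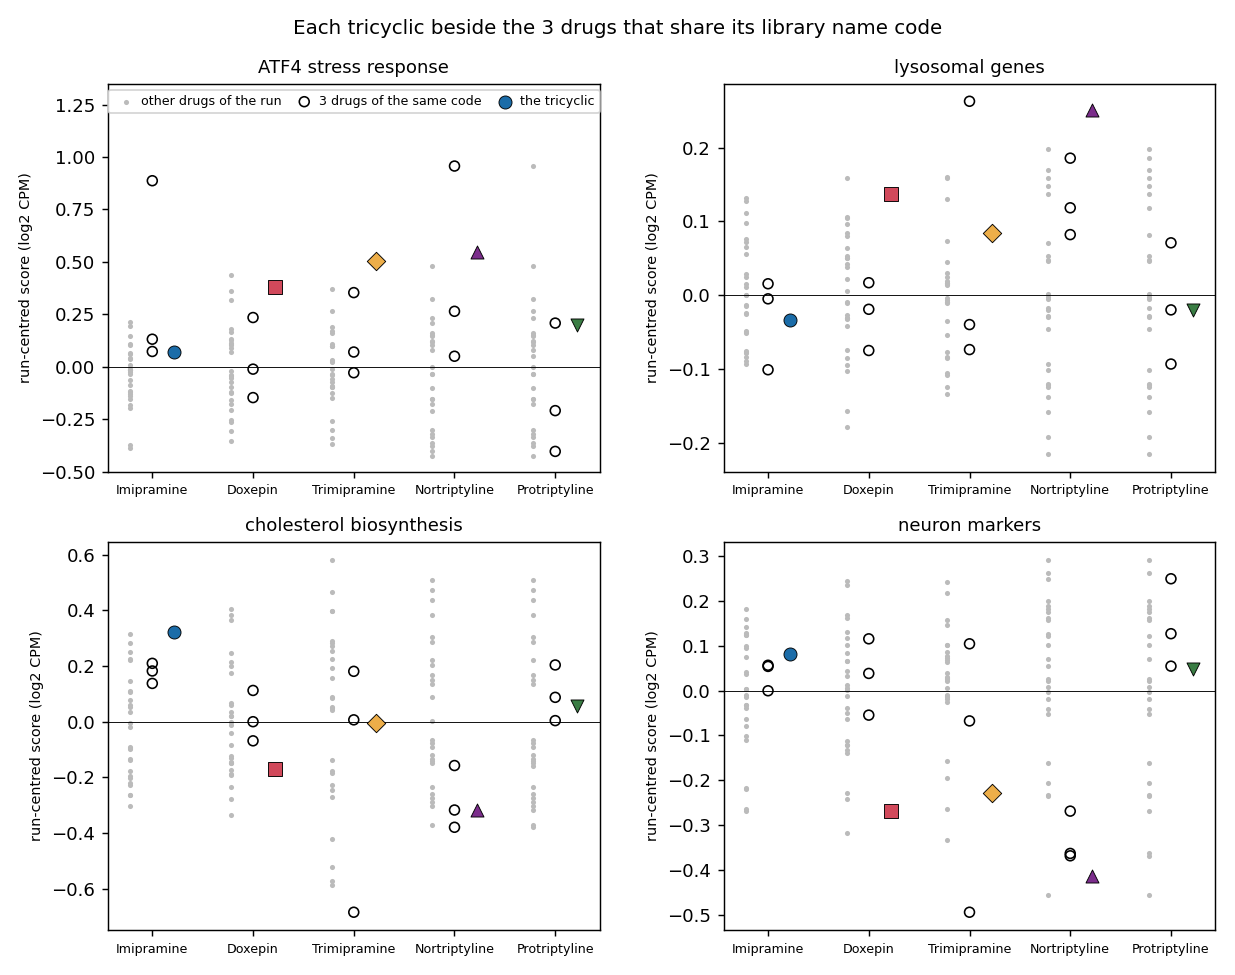
Run-centred scores of 4 gene lists (log2 CPM) for each tricyclic (coloured), the 3 drugs that share its library code (open circles) and the remaining drugs of the run (grey). For ATF4 stress genes Doxepin and Trimipramine lie above all 3 drugs of their code, and for neuron markers the drugs of Nortriptyline's code are low together with it.

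Targets of NRF2, the transcription factor of the oxidative stress response, were higher than in vehicle for 7 of 10 genes at the unadjusted level (median 0.31) and for 0 of 10 against the other drugs (median 0.17), or 6 of 10 without Imipramine. Hmox1, heme oxygenase, was at 87.73 CPM with Imipramine, 189.4 with Doxepin, 106.2 with Trimipramine, 191.9 with Nortriptyline and 152.2 with Protriptyline, against 50.98 to 137.5 CPM in the vehicles. Doxepin, Nortriptyline and Protriptyline stood above every vehicle. Txnrd1, thioredoxin reductase, averaged 208.9 ± 43.3 CPM (SD, n = 5) against 150.5 ± 29.0 (SD, n = 9), with the same 3 drugs above all vehicles. Against the drugs of the same code the score was higher by 0.29 for Doxepin, 0.29 for Protriptyline, 0.16 for Nortriptyline and 0.08 for Trimipramine, and -0.12 for Imipramine.

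Lysosomal genes were of interest because tricyclics accumulate in that compartment. Against vehicle 8 of 22 were higher and 1 lower at the unadjusted level (median 0.13), and against the other drugs 6 of 22 were higher and 1 lower (median 0.08). Nortriptyline had the highest run-centred score of the class, 0.25, which was also the highest of the 31 drugs of its run. Doxepin (0.14, rank 2 of 31) and Trimipramine (0.08, rank 5 of 30) followed. Imipramine (-0.03) and Protriptyline (-0.02) were near the mean of their runs. Without Nortriptyline 0 of 22 genes were higher than in the other drugs, without Doxepin or without Trimipramine 2 of 22, and without Imipramine 12 of 22. Against vehicle 3 of 22 were higher without Doxepin or without Nortriptyline. Ctsd, the protease cathepsin D, was at 390.8, 498.5, 383.3, 489.9 and 403.7 CPM in the order Imipramine, Doxepin, Trimipramine, Nortriptyline, Protriptyline, against 320.8 to 427.4 CPM in the vehicles. Lamp1, a membrane protein of lysosomes, averaged 716.2 ± 121.1 CPM (SD, n = 5) against 570.6 ± 97.4 (SD, n = 9). Both genes had Doxepin and Nortriptyline above every vehicle and the other 3 drugs within the range. Relative to the same code the score was 0.16 for Doxepin, 0.12 for Nortriptyline, 0.04 for Trimipramine, -0.003 for Imipramine and -0.006 for Protriptyline. With the neuron marker score as a term 0 of 22 genes were higher and the median was 0.01. Smpd1, the acid sphingomyelinase that tricyclics are known to inhibit at the protein level, spanned 122 to 136.1 CPM, against 122 to 154.7 CPM in the vehicles.

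Imipramine and Nortriptyline lay at opposite ends of the class for cholesterol genes in the comparison with their runs. Imipramine's cholesterol biosynthesis score of 0.322 was the highest of the 31 drugs of its run, just above Meloxicam (0.315). Its score for sterol uptake and SREBP control (0.245) was also the highest of the run. Nortriptyline (-0.32, rank 28 of 31) and Doxepin (-0.17, rank 25 of 31) were low, and Trimipramine (0.00) and Protriptyline (0.06) near the mean. Hmgcs1, which makes the precursor of the mevalonate pathway, was at 679.1 CPM with Imipramine, 259.4 with Doxepin, 610 with Trimipramine, 240.4 with Nortriptyline and 370.0 with Protriptyline. The vehicles spanned 303.7 to 1062 CPM, so only Doxepin and Nortriptyline fell outside that range, below it.

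**Figure D4:**
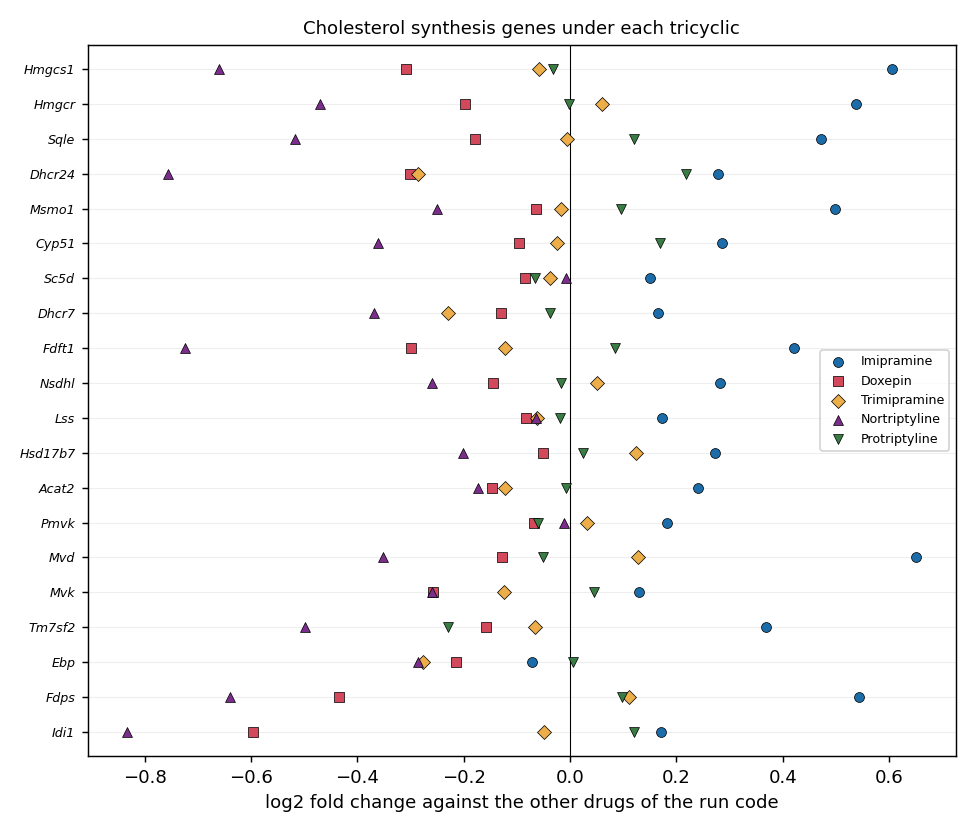
Log2 differences of 20 cholesterol biosynthesis genes from the other drugs of the run, with 1 symbol per tricyclic. 19 of 20 values of Imipramine are above 0 and all 20 of Nortriptyline are below it.

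For the class against the other drugs 0 of 20 cholesterol biosynthesis genes passed the unadjusted level, and the median was -0.01. Against vehicle all 20 lay below 0, with a median of -0.35, and 1 passed that level: Ebp, a sterol isomerase, with 5.27 ± 0.53 CPM (SD, n = 5) against 6.36 ± 0.75 (SD, n = 9). The vehicles were themselves higher than the other drugs at 18 of these 20 genes, where 12.4% of all genes were. In Imipramine's own fit 19 of 20 genes stood above 0 and 0 passed the unadjusted level, and the score exceeded its 3 code neighbours, which ranged from 0.14 to 0.21, by 0.15 in the mean. Trimipramine's difference from the same code was as large, at 0.16, and the others were -0.18 for Doxepin, -0.03 for Nortriptyline and -0.04 for Protriptyline. For sterol uptake and SREBP control the difference from the same code was 0.24 for Trimipramine and 0.08 for Imipramine. Npc1, whose product exports cholesterol from lysosomes, was at 61.52 CPM with Imipramine, 74.79 with Doxepin, 62.08 with Trimipramine, 76.79 with Nortriptyline and 62.16 with Protriptyline, against 49.2 to 72.66 CPM in the vehicles. Only Doxepin and Nortriptyline exceeded the vehicles, the reverse of Hmgcs1.

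**Figure D5:**
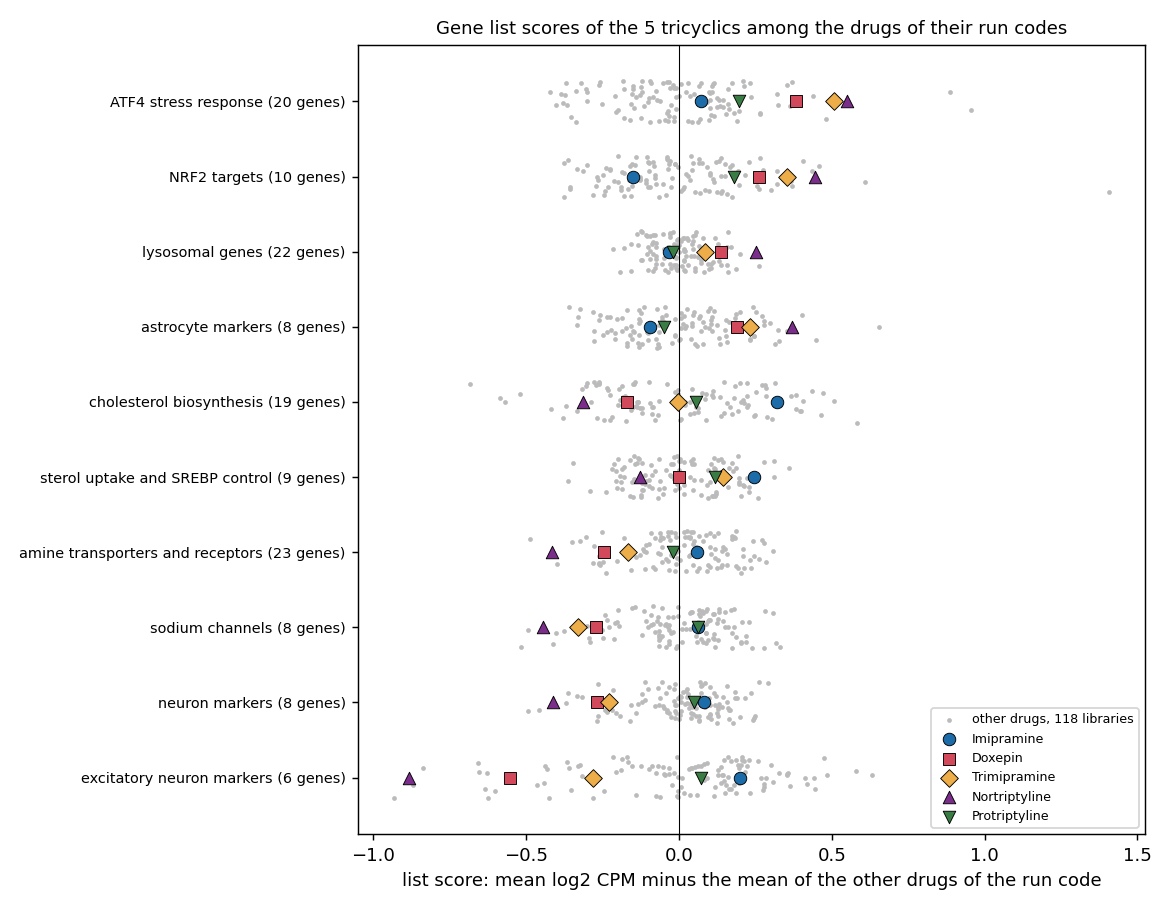
Run-centred scores of the gene lists (log2 CPM) for the 5 tricyclics, with the other drugs of the runs behind them. Nortriptyline, Doxepin and Trimipramine lie above 0 for ATF4, lysosomal and NRF2 genes and below 0 for neuron markers. Imipramine is the highest of the 5 tricyclics for cholesterol biosynthesis, while some other drugs lie above it.

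The genes of lowest p against vehicle are given as a description, since they were picked by this comparison and none passed. The naming rule kept only genes with all 5 tricyclics on the same side of the vehicle mean. Srgap1, a GTPase-activating protein of neuronal migration, was at 72.75 CPM with Imipramine, 91.12 with Doxepin, 77.85 with Trimipramine, 84.22 with Nortriptyline and 70.89 with Protriptyline, and at 57.2 to 70.28 CPM in the vehicles. Its log2 difference was 0.34 ± 0.06 (SE), with adjusted p = 0.150 in edgeR. Eif2s2, the beta subunit of eIF2, ran from 64.43 to 73.41 CPM against 53.2 to 62.41 CPM, a log2 difference of 0.24 ± 0.05 (SE). Sec11a, of the signal peptidase, also stood above every vehicle. Dock4, a regulator of small GTPases, was below all vehicles in all 5, at 88.36 to 95.48 CPM against 100.0 to 117.1 CPM. Slc30a3, the zinc transporter of synaptic vesicles, averaged 14.9 ± 3.65 CPM (SD, n = 5) against 23.2 ± 2.59 (SD, n = 9) and overlapped.

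Against the other drugs, among genes with all 5 tricyclics on the same side, the lowest p belonged to Cd276, an immune checkpoint ligand. It was at 33.68 CPM with Imipramine, 36.31 with Doxepin, 32.72 with Trimipramine, 33.97 with Nortriptyline and 31.79 with Protriptyline. The vehicles held 26.91 to 31.76 CPM, so the groups did not overlap. Its log2 difference was 0.19 ± 0.04 (SE) with adjusted p = 0.252 in edgeR, and it ranked 1 or 2 in its run for 4 of the 5 drugs and 5 for Protriptyline. Nfe2l1, a transcription factor of proteasome genes, had a difference of 0.13 ± 0.03 and was the highest of its run for Doxepin, Trimipramine and Nortriptyline. Arl2, Sorcs2 and Pabpc4 followed with differences of 0.11 to 0.17. On the lower side stood Kndc1, Dixdc1, Pcdhb10, Dscaml1 and Fam160a1, with differences from -0.55 to -0.21. In a further fit 9 drugs with called genes of their own in earlier results of these data were left out of the comparison. There 7 genes passed the adjusted threshold, all higher: Cd276, Nfe2l1, Eif2s2, Tars, Cth, Pck2 and Slc7a1. Tars charges a transfer RNA with threonine and Slc7a1 imports cationic amino acids. The drugs left out include Nilotinib (0.96) and Aminophylline (0.89), the highest ATF4 scores of their runs, and Cth is on the ATF4 list. These calls are therefore no separate support for a rise of such genes.

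The 5 compounds also differed in how far each stood from its run. The median absolute log2 deviation over 13023 genes ranked Nortriptyline 3 of 31, Doxepin 5 of 31, Trimipramine 8 of 30, Imipramine 10 of 31 and Protriptyline 24 of 31. At an unadjusted p under 0.05 Nortriptyline differed from the other drugs at 2742 genes, of which 1649 (10.3%) were lower, and Trimipramine at 1493, of which 695 (4.34%) were lower. Doxepin passed that level at 626 genes, with 332 (2.07%) lower, Imipramine at 527, with 248 (1.55%) lower, and Protriptyline at 264, with 169 (1.06%) lower. In both directions together these were 3.91%, 3.29% and 1.65% of 16017 genes, each a smaller share than the level of 0.05 itself. With the code as the block the count was 1001 for Nortriptyline, 720 for Trimipramine and 1260 for Doxepin. Across genes, the run-centred profiles of Doxepin and Nortriptyline correlated at r = 0.71, Trimipramine and Nortriptyline at 0.59, Doxepin and Trimipramine at 0.55, and Imipramine and Nortriptyline at -0.41. Of 5221 pairs of other drugs from different runs, the median r was 0.00 and the 5th and 95th percentiles were -0.52 and 0.54. Genes are not independent replicates, and the profiles share the libraries' neuron marker levels.

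The genes of lowest p in single-drug fits included some that 2 tricyclics shared. With Nortriptyline, Npas1, a transcription factor of interneurons, was at 0.52 CPM against 3.357 to 5.332 CPM in the vehicles, and Doxepin had 0.93 CPM. The other three had 2.459 to 4.626 CPM. Sccpdh was at 100.2 CPM with Imipramine and 84.12 with Trimipramine, both the highest of their runs and above the vehicles (65.14 to 73.57 CPM), while the remaining 3 drugs had 60.86 to 64.91 CPM. Col4a1, a basement membrane collagen, was highest of its run with Doxepin (66.28 CPM against 40.36 to 53.69 in the vehicles). Zfp36, an RNA-decay factor induced by stimulation, was highest of its run with Trimipramine, at 7.29 CPM against 1.72 to 6.60 CPM. Igfbp2, a binding protein of insulin-like growth factors, was highest of its run with Protriptyline (97.65 CPM) and with Doxepin (107.7 CPM), against 42.11 to 82.3 CPM in the vehicles. None passed an adjusted p of 0.05 in edgeR.

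Secondary amines were compared with tertiary amines, in the fit with run code as a term. No gene passed (lowest adjusted p = 1 over 16017 genes), 317 genes (1.98%) were at an unadjusted p under 0.05 in edgeR, and DESeq2 and limma called 0. That share is smaller than the level of 0.05 itself. The 95% interval of the difference in list score included 0 for all 23 lists. For ATF4 genes the difference was 0.05 (-0.38 to 0.48), for lysosomal genes 0.05 (-0.12 to 0.22), for cholesterol biosynthesis -0.18 (-0.65 to 0.29), for amine receptors -0.10 (-0.41 to 0.22) and for neuron markers -0.04 (-0.34 to 0.25). The naming rule kept only genes whose run-centred levels split by amine type. Among these Mrpl55, of the mitochondrial ribosome, had the lowest p of those higher in secondary amines. Its log2 difference with run as a term was 0.25 ± 0.08 (SE). It was at 12.27 CPM with Nortriptyline and 12.44 with Protriptyline, and at 10.48 to 10.69 CPM with the 3 tertiary amines. The secondary amines share a run that holds no tertiary amine, so these CPM values, without a run term, cannot tell amine type from run. The vehicles (10.71 to 12.63 CPM) covered the secondary amines. Ptgs1, which encodes a cyclooxygenase, had a difference of -0.89 ± 0.25 (SE).

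All 10 pairs of tricyclics were compared, with p-values adjusted over the 10 pairs together. No gene passed (lowest adjusted p = 0.898 in edgeR), and limma called 0. The median absolute log2 difference over genes ran from 0.113 (Doxepin and Trimipramine) to 0.264 (Imipramine and Nortriptyline). It was 0.217 for Nortriptyline and Protriptyline, isomers from the same run that carry different library codes. Their list scores, with intervals widened for 10 pairs, differed by 0.35 (-0.59 to 1.29) for ATF4 genes, 0.27 (-0.10 to 0.64) for lysosomal genes, -0.46 (-1.11 to 0.18) for neuron markers and -0.37 (-1.40 to 0.65) for cholesterol biosynthesis. Relative to the same code, Nortriptyline and Protriptyline stood at -0.08 and -0.10 for neuron markers and at -0.03 and -0.04 for cholesterol biosynthesis. For lysosomal genes they stood at 0.12 and -0.006. For ATF4 genes they stood at 0.12 and 0.33, so there Protriptyline was the higher. The part of the code in the differences between these isomers was not tested. Imipramine and Trimipramine, which differ by a methyl branch, gave -0.43 (-1.39 to 0.52) for ATF4 genes, 0.31 (-0.35 to 0.97) for neuron markers and 0.33 (-0.72 to 1.37) for cholesterol biosynthesis. The interval included 0 for all 23 lists in all 10 pairs. These intervals are wide, with 1 library per drug and unknown doses, and do not show that the compounds act alike.

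The 6 selective serotonin reuptake inhibitors in the screen, which share the transporter target without the ring system, served as a further comparison. No gene passed (lowest adjusted p = 0.970 over 15621 genes in edgeR), 678 (4.34%) were at an unadjusted p under 0.05 and limma called 0. That share is smaller than the level of 0.05 itself. All 20 ATF4 genes stood above the inhibitors, 6 of them at the unadjusted level (1.85% of all genes), with a median of 0.30. All 8 neuron markers stood below, 0 at that level (2.49% of all genes), with a median of -0.14. Among genes with all 5 tricyclics on the same side of the inhibitors, Rps14 and Dnal4 had the lowest p of those that stood higher. Their differences were 0.20 ± 0.06 and 0.14 ± 0.04 (SE).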

How the data were processed

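Libraries were made from polyadenylated RNA with a stranded kit, per the labels' protocols. The deposited values are whole-number counts per gene for 31690 genes, made by the authors from reads, and the submitters' processing notes name STAR 2.4.0, Subread 1.4.6, edgeR 3.10.5, limma and mm10 without their roles. Deposited RPKM values were not used. Groups came from the agent labels and runs from the column names. Members were set by drug name, but with earlier results of these data known, as were the gene lists.

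Counts were tested in R 4.3.3 with edgeR 4.0.16 (TMM factors, filterByExpr, robust quasi-likelihood F test, Benjamini-Hochberg adjustment, threshold 0.05), with run as a term except against vehicle. Single drugs, with no replicate, took their spread from the libraries compared with them. Alternatives were DESeq2 1.42.0, limma 3.58.1, RLE factors, no filter, fewer comparison drugs, other run terms and leaving out each library. Scores used log2 CPM (prior count 1) of genes with a mean CPM of at least 1. The text names genes of lowest p with a mean CPM of at least 1, up to 5 in each direction per comparison, and the 4 most abundant of each list. In class comparisons all 5 tricyclics also had to lie on the same side of the mean of the comparison group. For the amines each member had to lie on its own side of the mean of the other amine type. The same-side patterns of these genes were therefore required in advance. The scripts were tested on simulated data.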

Additional observations from a re-analysis of the deposited data

Results flagged for a closer look

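In 67 groups of values, some from the 5 tricyclics and some from the 9 vehicles, 2 held a library far from the others. Both were groups of tricyclics, and chance gives about 1 in 20 such groups. Trimipramine's score for microglial markers was -0.24, while the next lowest was -0.01 and the highest 0.05. Rnf112, a ubiquitin ligase gene, was at 63.66 CPM with Protriptyline, while the next highest was 44.84 and the lowest 40.49 CPM. The microglial score rests on 2 of 6 markers. It was higher in the secondary than in the tertiary amines by 0.12, with each secondary amine above 0 and each tertiary amine below it, and this split was not tested beyond the interval of -0.43 to 0.68.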

How the results depend on the processing

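Named genes gave 140 pairs of a gene and a comparison, with some genes in several pairs. Of their 1470 values under the alternatives, 0 changed direction and 38 gained a call. The genes were picked for low p in these same data, so a change of direction was unlikely from the start. No call could be lost, since edgeR called 0 genes. Counts of called genes moved as follows. With DESeq2, 443 genes were called for the class against vehicle, 737 for Nortriptyline, 145 for Doxepin, 2 for Imipramine and 1 for Trimipramine (Otof). Leaving out 1 library gave 0 to 2 for the class against vehicle (2 without Protriptyline, Rnf112 and Otof, and 1 without Vehicle 1, Il13ra1), 0 to 7 for Nortriptyline against vehicle (7 without Vehicle 2, and 1 without Vehicle 4, Syt13) and 0 to 1 for secondary against tertiary amines (without Protriptyline, Thap8). Without the low-count filter 1 gene was called for Protriptyline against the other drugs (Krt8). Without 9 comparison drugs 7 were called for the class against the other drugs. The cause was not tested. The fits with the library code or the neuron marker score as a term were chosen after seeing the data, and called 0 genes for the class. No paired analysis was possible because drugs and vehicles share no replicate number. The run ties each tricyclic to 1 or 2 vehicles, and the fit on these 5 vehicles with run as a term called 0 genes, with 2771 at an unadjusted p under 0.05. Depth limits genes near 0, such as Slc6a2 and Slc6a4.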
